A study of Mus musculus with 59 samples.

Results

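The genes described here encode the proteins that hold synaptic vesicles at the nerve terminal, prime them and fuse them with the plasma membrane. They were chosen by symbol from the table of gene counts: the synaptotagmins (Syt and a number), the synapsins Syn1, Syn2 and Syn3, the syntaxins (Stx), the syntaxin-binding proteins (Stxbp), the VAMP genes (Vamp), the complexins Cplx1 to Cplx4, the Rab3 genes, the RIM genes Rims1 to Rims4, the Munc13 genes Unc13a to Unc13d, Sv2a to Sv2c, Snap25, Bsn, Pclo, Nsf and Syp. The choice found 72 of 57180 gene rows and used no measured value. All 72 had a count above 0 in at least 1 of the 59 libraries. In each tissue 68 had enough counts to be tested, and Cplx4, Stx11, Stx19 and Syt8 did not: their highest level in any library was 0.728, 0.34, 0.452 and 0.124 CPM (counts scaled to the same library size), respectively. By role, the 72 comprised 14 genes of the active zone and of priming, 22 SNAREs, 12 regulators of SNAREs, 17 synaptotagmins and 7 other vesicle proteins.

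At a nerve terminal, vesicles are gathered by synapsins, brought to the active zone by Rab3 and RIM proteins, and primed by Munc13 proteins. Fusion is driven by SNAREs, which zip together a vesicle protein (a VAMP) and plasma membrane proteins (a syntaxin and SNAP-25), and synaptotagmin on the vesicle triggers it when calcium enters. Munc18 proteins and complexins control the assembly of that complex, and the ATPase NSF takes it apart afterwards. Most of these proteins come in families whose members are used by different neurons, and many of the remaining syntaxins and VAMPs act in other membranes, such as the Golgi or endosomes.

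The samples were cortex and hippocampus of male mice, whose poly(A) RNA was sequenced to compare 4 labelled genotypes for 2 genes of mitochondria, Slc25a1 (the citrate carrier) and Mrpl40 (a protein of the mitochondrial ribosome). Wild type (Mrpl40 +/+,Slc25a1 +/+) was represented by 9 cortex and 8 hippocampus libraries, and Slc25a1 het (Mrpl40 +/+,Slc25a1 -/+), Mrpl40 het (Mrpl40 -/+,Slc25a1 +/+) and double het (Mrpl40 -/+,Slc25a1 -/+) each by 7 libraries per tissue. The libraries came from 30 animals, numbered in the labels, of which 29 gave both tissues, so that replicates are animals. The labels give no treatment and no age, and do not say what kind of mutation the alleles are. Library totals ranged from 21443017 to 32120906 counts, and the 72 genes together took 2.3 ± 0.0607% of the counts in cortex (SD, n = 30) and 1.92 ± 0.116% in hippocampus (n = 29).

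Slc25a1 itself fell into 2 separate ranges in each tissue. In cortex 12 libraries lay between 10.8 and 13.1 CPM and 18 between 21.0 and 26.3, and the same animals split when hippocampus was measured. For 6 animals the range did not match the labelled genotype: wild type 6 and 7 were in the low range, and Slc25a1 het 3 and 4 and double het 5 and 6 in the high range. Genotypes below are therefore those of the libraries as labelled, and results were also computed without these 6 animals, called the mismatched animals. Mrpl40 did not differ between labels by more than the spread: in cortex it was 17.9 ± 1.56 CPM in libraries labelled wild type and 17.4 ± 1.58 in those labelled Mrpl40 het, so that its level does not check that label. Marker genes of neocortical layers and of hippocampal subfields fitted the tissue labels in all libraries: the summed level of 13 detected layer markers was 1132 to 1464 CPM in cortex and 357 to 579.9 in hippocampus, and that of 7 dentate gyrus markers 197 to 326 and 571 to 1176. Among hippocampus libraries, 4 stood apart in markers of brain regions or of choroid plexus. Wild type 8 had the highest layer marker sum (579.9 CPM) and the lowest CA1 to CA3 marker sum (615). Slc25a1 het 3 had a sum of cerebellar markers of 756 CPM, against at most 166 in the others. Mrpl40 het 5 had the highest sum of CA1 to CA3 markers (1322 CPM) with the lowest of dentate gyrus markers (571), and double het 6 the highest of choroid plexus markers. Results that involve hippocampus were also computed without these 4 libraries. Slc25a1 het 7 had the lowest neuron marker sum of the hippocampus libraries (3519 CPM) and the highest astrocyte marker sum (7469). It was kept in these runs.

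Levels of different genes were compared as CPM per kilobase of exon. In cortex of libraries labelled wild type (n = 9), Snap25, the plasma membrane SNARE that supplies a pair of helices to the complex, was the highest of the 72 at 514 ± 33.6 CPM per kb (SD). Cplx1 and Cplx2, complexins that clamp and promote fusion, followed at 341 ± 31.6 and 333 ± 12.6, which did not differ beyond their spread. Then came Vamp2, the main vesicle SNARE of the forebrain, at 312 ± 16.0. The calcium sensor gene Syt1 was at 223 ± 13.2. Syt1 and Syn1 (221 ± 10.8) were also within each other's spread. The highest gene of the active zone group was Rab3a at 203 ± 10.8 CPM per kb, and the highest of the vesicle proteins was Syn1. Bsn and Pclo, which encode the giant scaffolds Bassoon and Piccolo, stood far lower per length: 42.8 ± 2.09 for Bsn.

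The order in hippocampus of libraries labelled wild type (n = 8) was different at the top. Cplx2 was first at 516 ± 63.0 CPM per kb, ahead of Snap25 at 320.4 ± 24.7 and Vamp2 at 237 ± 14.7. Cplx1 came next at 208 ± 20.2. Nsf, the ATPase that disassembles SNARE complexes, moved from rank 14 in cortex to rank 6 at 164 ± 13.4, within the spread of Rab3a (169 ± 7.66) and Syt11 (162 ± 10.0). Stx1a, a syntaxin of the plasma membrane, went the other way, from rank 12 at 152 ± 4.32 CPM per kb to rank 24 at 30.3 ± 4.41.

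The promoters of 6 members on which the comparison of tissues turns are shown as the 250 bases before the start of transcription, on the gene's strand, 5′ to 3′, from RefSeq (GRCm38.p6, which is not the build of the counts). Rims3 and Stx1a had the largest falls from cortex to hippocampus, Cplx1 and Cplx2 moved in opposite directions, Syn1 fell while Sv2c rose. Capitals mark GC boxes (GGGCGG, or CCGCCC where the box is on the other strand), the cyclic AMP response element TGACGTCA and the left part of the RE1 element of neuronal genes, TTCAGCACC.
Rims3 (chr4:120854549-120854798, + strand): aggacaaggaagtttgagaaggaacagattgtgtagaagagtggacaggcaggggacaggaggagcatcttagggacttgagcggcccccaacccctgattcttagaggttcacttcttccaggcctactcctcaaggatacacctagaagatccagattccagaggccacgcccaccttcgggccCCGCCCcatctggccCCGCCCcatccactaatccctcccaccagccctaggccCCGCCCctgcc
Stx1a (chr5:135023232-135023481, + strand): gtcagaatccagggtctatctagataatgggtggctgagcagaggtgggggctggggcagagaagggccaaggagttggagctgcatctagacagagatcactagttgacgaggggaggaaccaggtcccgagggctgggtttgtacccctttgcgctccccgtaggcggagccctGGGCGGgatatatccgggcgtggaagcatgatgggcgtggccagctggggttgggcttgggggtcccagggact
Cplx1 (chr5:108550028-108550277, - strand): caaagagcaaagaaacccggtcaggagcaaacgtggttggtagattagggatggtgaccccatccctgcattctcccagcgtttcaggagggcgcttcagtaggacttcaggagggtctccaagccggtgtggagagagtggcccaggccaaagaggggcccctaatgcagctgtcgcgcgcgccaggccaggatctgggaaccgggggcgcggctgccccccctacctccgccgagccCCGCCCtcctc
Cplx2 (chr13:54302306-54302555, + strand): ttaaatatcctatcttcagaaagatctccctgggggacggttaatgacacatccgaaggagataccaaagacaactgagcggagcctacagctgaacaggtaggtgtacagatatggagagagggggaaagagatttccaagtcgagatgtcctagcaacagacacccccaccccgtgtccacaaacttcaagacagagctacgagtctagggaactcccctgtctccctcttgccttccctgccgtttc
Syn1 (chrX:20920919-20921168, - strand): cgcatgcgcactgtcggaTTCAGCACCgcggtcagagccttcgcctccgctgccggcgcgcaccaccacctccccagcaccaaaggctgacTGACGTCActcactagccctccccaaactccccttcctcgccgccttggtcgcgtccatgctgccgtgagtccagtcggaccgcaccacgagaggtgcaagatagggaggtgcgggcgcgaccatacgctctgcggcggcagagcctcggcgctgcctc
Sv2c (chr13:96132578-96132827, - strand): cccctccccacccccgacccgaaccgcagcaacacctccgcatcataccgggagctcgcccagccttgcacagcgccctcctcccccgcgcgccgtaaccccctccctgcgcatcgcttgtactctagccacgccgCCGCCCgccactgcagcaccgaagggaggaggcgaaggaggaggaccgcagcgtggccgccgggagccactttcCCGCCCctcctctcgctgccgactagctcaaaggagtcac

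Over the window from 250 bases before to 50 after the start, searched on both strands, 56 of the 72 genes had a RefSeq promoter, with 72 windows in all. A GC box was found in 66.7% of these windows, against 35.7% of all 32851 RefSeq windows of that length. The median GC content was 62.3% and 52.7%, respectively. The sequence TTCAGCACC occurred in 2.78% of member windows (Syn1 and Unc13a) and 0.371% of all windows. TGACGTCA occurred in 2.78% (Stxbp3 and Syn1) and 1.79%, and the TATA box TATAAA in 6.94% and 13.6%. Among the 6 sequences shown, Rims3, with the largest fall, had 3 GC boxes and Sv2c, which rose, had 2. Cplx2 and Syn1 had none in the stretch shown, and moved in opposite directions. A match is a description of the letters in the window, not a site of binding.

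Most release genes differed between the tissues, and more of them were lower in hippocampus than higher. In libraries labelled wild type, with the animal as a block, 54 of the 68 tested members were called at an adjusted p under 0.05 (edgeR's quasi-likelihood test with Benjamini-Hochberg adjustment over 21354 genes): 17 were higher in hippocampus and 37 lower. Over all genes tested 60.6% were called, 30.4% higher and 30.1% lower, against 79.4% of the members. The median log2 fold change of hippocampus against cortex was -0.23 over the members and 0.0066 over all genes. The members were also more abundant, with a median of 6.67 log2 CPM against 3.31 over all genes tested, and the part of that abundance in the share called was not tested. In bulk tissue, fewer cells of a type and less RNA per cell cannot be told apart.

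**Figure D1:**
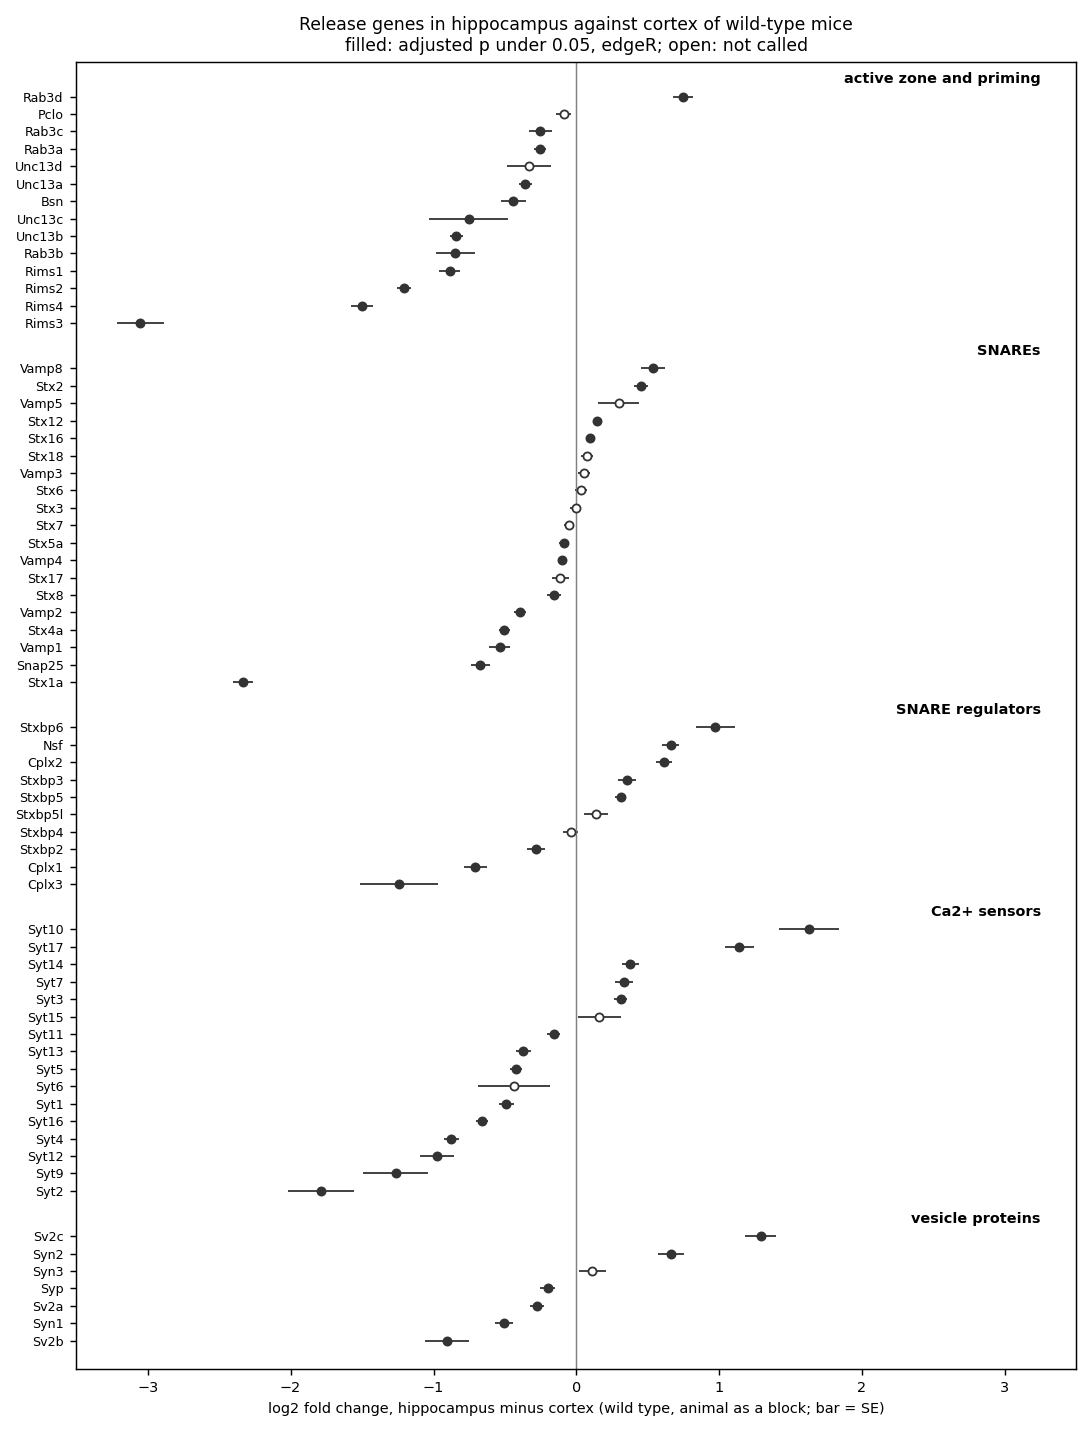
Log2 fold change of hippocampus against cortex (horizontal axis) for 66 of the 68 tested release genes in libraries labelled wild type, in rows by role; points are estimates, bars are SE, and filled points have an adjusted p under 0.05 in edgeR. Rims3 (-3.05) and Stx1a (-2.33) lie farthest to the left and Syt10 (1.63) farthest to the right.

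The same contrast in the other labelled genotypes gave similar counts. In Slc25a1 het 54 of 68 were called (20 higher and 34 lower), where 60.4% of all genes were called, 30.5% higher and 29.9% lower. In Mrpl40 het it was 55 (19 higher and 36 lower), where 60.3% of all genes were called, 30.8% higher and 29.4% lower. In double het it was 56 (18 higher and 38 lower), where 57.5% of all genes were called, 28.9% higher and 28.6% lower. The 4 genotypes have no library in common, and 49 members were called in all 4 in the same direction: 16 were higher in hippocampus and 33 lower. Over all genes tested, 45% were called in all 4 in the same direction, 22.2% higher and 22.8% lower. A further 13 were called in 1 to 3 genotypes and 6 in none. Those called in none were Pclo, Unc13d, Stx6, Stx17, Stx18 and Syn3.

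Genes of the active zone and of priming were mostly lower in hippocampus: 11 of 14 fell, 1 rose (Rab3d) and 2 were not called (Pclo and Unc13d). Over all genes tested in wild type, 30.1% were lower and 30.4% higher. The median log2 fold change of this group was -0.60. The RIM genes had the largest differences. RIM1 and RIM2 (Rims1 and Rims2) tether calcium channels and vesicles at the release site, while Rims3 and Rims4 encode short forms that keep only the last C2 domain. Rims3 measured 343 to 513 CPM (median 435) over all 30 cortex libraries and 30.2 to 117 CPM (median 45.2) over all 29 of hippocampus. The tissues did not overlap, and Rims3 was lower in hippocampus in 29 of 29 animals. In libraries labelled wild type its log2 fold change was -3.05 ± 0.16 (SE, adjusted p 6.3e-15, edgeR), and -3.21 ± 0.14 without the 4 hippocampus libraries that stood apart.

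Rims4 measured 135 to 185 CPM (median 161) in cortex and 44.4 to 79.6 CPM (median 52.5) in hippocampus, and Rims2 124 to 162 CPM (median 144) and 55.0 to 85.8 CPM (median 62.0). Again no hippocampus library reached the lowest of cortex, and log2 fold changes in wild type were -1.50 ± 0.079 and -1.21 ± 0.052. Rims1 fell by 0.89 on the log2 scale, from 315 ± 23.8 to 168 ± 10.8 CPM (SD). Per length, Rims3 was the highest of the 4 RIM genes in cortex at 53.7 ± 4.27 CPM per kb, and in hippocampus, at 6.86 ± 3.31, it stood below Rims1 (22.8 ± 1.47).

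Among Munc13 genes, which open syntaxin for SNARE assembly, the 2 main forebrain members differed in size of change: Unc13a went from 641 ± 30.9 to 498 ± 44.8 CPM (log2 fold change -0.36 ± 0.045) and Unc13b from 101 ± 3.41 to 56.4 ± 5.21 (-0.84 ± 0.045). Unc13c fell with 1 library far from the others. In hippocampus labelled wild type its range was from 6.34 to 50.0 CPM with a median of 9.16, the highest value being that of library 8, against from 16.6 to 22.0 CPM with a median of 18.4 in cortex. Its log2 fold change was -0.76 ± 0.28 (adjusted p 0.02, edgeR), -1.09 ± 0.21 without the 4 hippocampus libraries that stood apart, and -0.68 ± 0.32 without the 6 mismatched animals (adjusted p 0.083, no longer called).

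The Rab3 genes encode GTPases of the vesicle surface, and their directions differed. Rab3a, the highest of the family per length, was 453 ± 24.1 CPM in cortex and 376 ± 17.1 in hippocampus of wild type (log2 fold change -0.26 ± 0.042). Rab3b and Rab3c were also lower (-0.85 ± 0.14 and -0.25 ± 0.079), while Rab3d rose from 11.7 ± 0.748 to 20.0 ± 2.88 CPM (0.75 ± 0.067) and was higher in hippocampus in 29 of 29 animals. Of the scaffolds, Bsn was lower (-0.44 ± 0.085) and Pclo had a log2 fold change of -0.09 ± 0.051 that was not called (adjusted p 0.13, edgeR).

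Of 20 tested SNAREs, 4 rose in hippocampus, 9 fell and 7 were not called. The share called was near the 60.6% of all genes, of which 30.4% were higher and 30.1% lower. The median log2 fold change of the SNAREs was -0.07. The 3 largest falls were those of Stx1a, Snap25 and Vamp1, all SNAREs of transmitter release. Stx1a measured 371 to 430.3 CPM (median 399) in cortex and 53.1 to 102 CPM (median 76.7) in hippocampus, with no overlap. In wild type its log2 fold change was -2.33 ± 0.07 (adjusted p 1.6e-22, edgeR), the smallest adjusted p of all members, and -2.35 ± 0.073 without the 4 hippocampus libraries that stood apart.

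Snap25 was 3117 to 4013 CPM (median 3619) in cortex and 1528 to 2987 CPM (median 2063) in hippocampus (wild type log2 fold change -0.67 ± 0.064). The vesicle SNARE genes Vamp1 and Vamp2 fell by 0.53 and 0.39 on the log2 scale. Stx4a, a plasma membrane syntaxin of many cell types, fell as well (-0.50 ± 0.04). Other SNAREs that were called were Stx5a (Golgi), Stx8 (late endosomes), Vamp4 (trans-Golgi and endosomes), Stx12 (endosomes) and Stx16 (trans-Golgi), with log2 fold changes of -0.085, -0.16, -0.10, 0.15 and 0.10. The 7 not called were Stx3, Stx6, Stx7, Stx17, Stx18, Vamp3 and Vamp5, whose log2 fold changes lay between -0.11 and 0.30. Without the 6 mismatched animals, Stx5a was not called (adjusted p 0.11, edgeR), and without the 4 hippocampus libraries Stx17 was (-0.15 ± 0.054). The other risers were Stx2 (0.45 ± 0.05) and Vamp8, a SNARE of endosomes and secretory granules, which went from 4.8 ± 0.779 to 7.27 ± 0.962 CPM (0.54 ± 0.083).

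The regulators of SNAREs were split, with 5 of 11 higher in hippocampus, 4 lower and 2 not called (Stxbp4 and Stxbp5l). Over all genes tested, 30.4% were higher and 30.1% lower. The median log2 fold change of the regulators was 0.14. Complexins bind the assembled complex. Cplx1 measured 607 to 899 CPM (median 745) in cortex and 303 to 704 CPM (median 441) in hippocampus, and was lower in hippocampus in 29 of 29 animals. Cplx2 measured 1467 to 1833 CPM (median 1651) and 1827 to 2893 CPM (median 2573), and was higher in 29 of 29. Cplx1 levels overlapped through hippocampus library Mrpl40 het 5 and Cplx2 levels through wild type 8, both among the 4 libraries that stood apart. In wild type the log2 fold changes were -0.71 ± 0.081 and 0.62 ± 0.056 (adjusted p 7.9e-09 and 1.2e-11, edgeR).

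Cplx3, a complexin best known from the retina, was low: from 7.09 to 13.8 CPM with a median of 10.7 in cortex of wild type and from 2.31 to 15.0 CPM with a median of 3.8 in hippocampus, where library 8 alone was above 4.67. Its log2 fold change was -1.24 ± 0.27, and -1.55 ± 0.24 without the 4 hippocampus libraries. Among Munc18 genes, Stxbp2 fell (-0.28 ± 0.062) and Stxbp3 rose (0.36 ± 0.065). Stxbp5, which encodes tomosyn, an inhibitor of SNARE assembly, rose (0.31 ± 0.038), while its relative Stxbp5l had 0.14 ± 0.083 and was not called. Stxbp6, which encodes amisyn, rose (0.97 ± 0.14), and so did Nsf (0.66 ± 0.058), which went from 878 ± 69.6 to 1371 ± 112 CPM.

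Of 16 tested synaptotagmins, 5 rose, 9 fell and 2 were not called (Syt6 and Syt15), with a median log2 fold change of -0.40. Over all genes tested, 30.4% were higher in hippocampus and 30.1% lower. Syt1, Syt2 and Syt9 encode the fast calcium sensors of release, and all 3 fell. Syt1 went from 1861 ± 110.1 to 1308 ± 97.2 CPM (-0.49 ± 0.054) and Syt9 from 9.02 ± 1.5 to 3.84 ± 1.89 (-1.27 ± 0.23). Syt2 ranged from 65.2 to 110.3 CPM with a median of 84.9 in cortex of wild type and from 14.1 to 66.5 CPM with a median of 22.8 in hippocampus, where library 8 exceeded the lowest cortex library. Its log2 fold change was -1.79 ± 0.23, and -2.05 ± 0.17 without the 4 hippocampus libraries. Syt7, whose protein binds calcium tightly and acts in slow release and facilitation, rose from 536 ± 40.6 to 682 ± 74.6 CPM (0.33 ± 0.061).

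The largest rise of all members was that of Syt10, at low levels: 0.346 to 1.28 CPM (median 0.708) in cortex and 1.41 to 3.83 CPM (median 2.16) in hippocampus, with no overlap and a log2 fold change of 1.63 ± 0.21 in wild type (adjusted p 3.7e-08, edgeR). Syt17, whose product is a synaptotagmin relative without a membrane anchor, rose as well, at 34.1 to 65.6 CPM (median 48.1) and 81.1 to 138 CPM (median 104) (1.14 ± 0.10). Syt3 and Syt14 rose by 0.31 and 0.38 on the log2 scale. Besides the fast sensors, Syt4, Syt12 and Syt16 fell by 0.88, 0.97 and 0.66, and Syt5, Syt11 and Syt13 by 0.42, 0.16 and 0.37.

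Of the 7 other vesicle proteins, 2 rose (Syn2 and Sv2c), 4 fell (Syn1, Sv2a, Sv2b and Syp) and Syn3 was not called, with a median log2 fold change of -0.20. Over all genes tested, 30.4% were higher in hippocampus and 30.1% lower. Synapsins, encoded by Syn1, Syn2 and Syn3, tie vesicles to each other and to actin. Syn1 was 651 to 823 CPM (median 727) in cortex and 378 to 675 CPM (median 505) in hippocampus, lower in 29 of 29 animals (-0.51 ± 0.061 in wild type). Syn2 was 418 to 552 CPM (median 470.2) and 514 to 985 CPM (median 727), higher in 28 of 29 (0.66 ± 0.093). SV2 proteins are transporter-like proteins of the vesicle membrane, SV2A being the target of the antiepileptic drug levetiracetam. Sv2b fell from 453 ± 24.7 to 243 ± 46.4 CPM (-0.91 ± 0.16), Sv2a fell less (-0.28 ± 0.05), and Sv2c, the lowest of the 3 per length, rose from 21.9 ± 2.36 to 52.5 ± 5.81 (1.29 ± 0.11). Sv2b was higher in hippocampus than in cortex in 1 animal, Mrpl40 het 5. Syp, which encodes synaptophysin, a common marker of terminals, fell by 0.20 on the log2 scale.

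**Figure D2:**
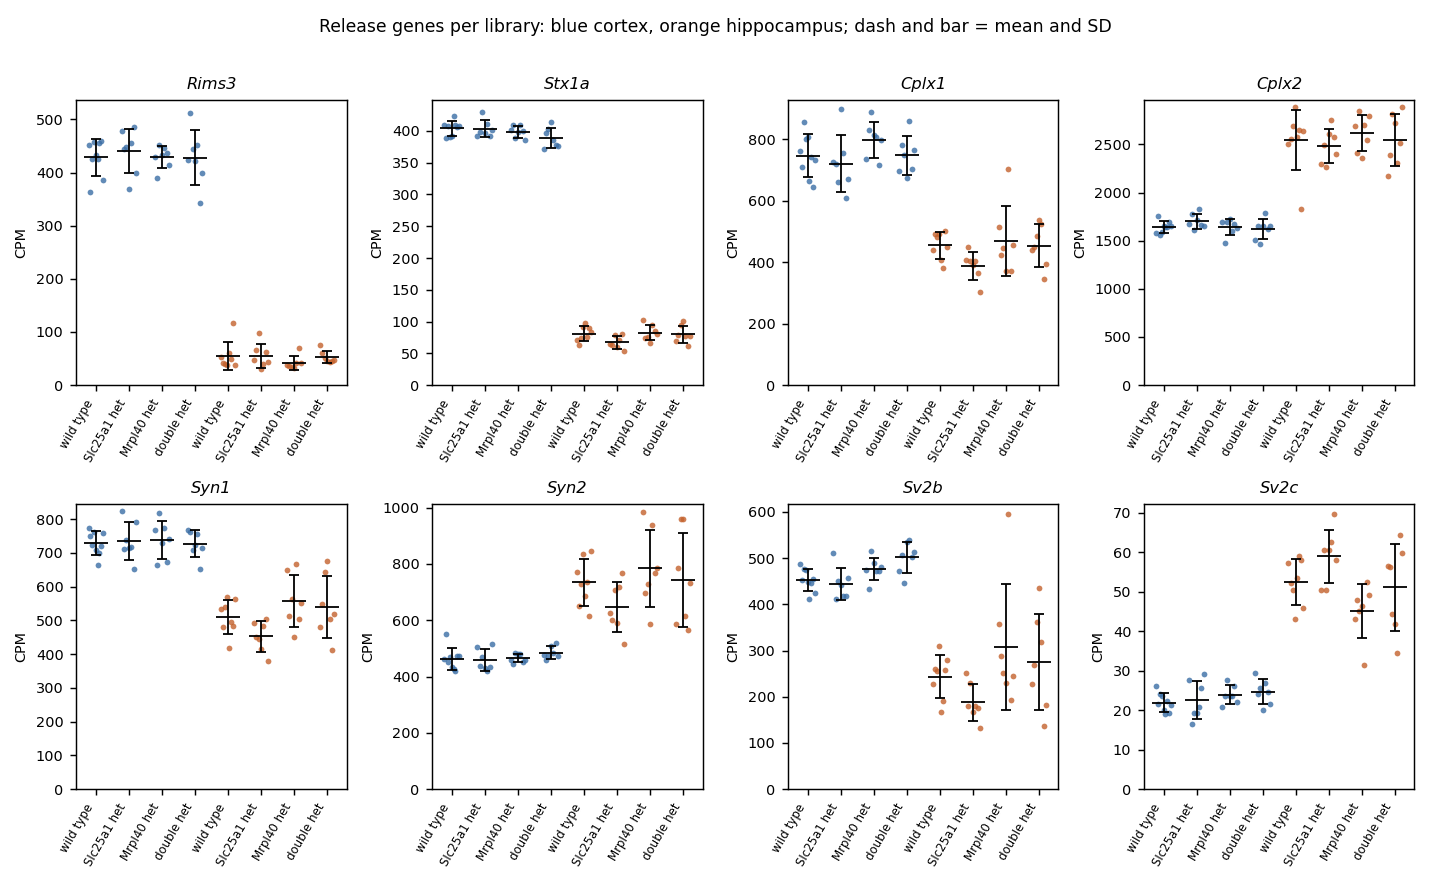
CPM (vertical axis) of 8 release genes in every library, by labelled genotype, with cortex in blue and hippocampus in orange; each point is 1 library and the dash and bar are the mean and SD. Rims3, Stx1a, Cplx1, Syn1 and Sv2b sit lower in hippocampus and Cplx2, Syn2 and Sv2c higher, by the mean of each labelled genotype.

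Ratios of relatives within 1 library do not depend on the scaling of the library. They were chosen after their values were seen, and are given without a test. The log2 ratio of Cplx1 to Cplx2 in hippocampus, minus that in cortex of the same animal, had a mean of -1.32 ± 0.37 (SD, 8 animals labelled wild type). For Syn1 to Syn2 it was -1.17 ± 0.15, for Sv2b to Sv2c -2.20 ± 0.42, and for Syt1 to Syt7 -0.82 ± 0.24. For these 4 pairs the ratio was lower in hippocampus in each of the 29 animals. For Syt2 to Syt1 it was lower in 7 of 8 wild type animals, the exception being wild type 8. In the other labelled genotypes that ratio was lower in 6 of 7 Slc25a1 het, 7 of 7 Mrpl40 het and 6 of 7 double het animals.

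Other genes of the pathway, from lists that share no gene with the 72, also differed between tissues in both directions. Of 45 tested genes of the release machinery outside the rule, 17 were higher in hippocampus and 21 lower. As above, 60.6% of all genes were called, the share against which these counts stand. Those with the smallest p in each direction were Lin7a, an adaptor of presynaptic and postsynaptic complexes (log2 fold change -1.39 ± 0.061), and Doc2b, a calcium sensor with C2 domains (3.61 ± 0.14). All 10 subunits of presynaptic calcium channels were called, 2 higher and 8 lower, with a log2 fold change of -1.13 ± 0.063 for Cacnb4 and 0.74 ± 0.045 for Cacna1e. Of 25 genes of vesicle recycling, 10 were higher (Ston2, an endocytic adaptor, by 0.96 ± 0.049) and 8 lower (Pacsin1 by -0.47 ± 0.04). Of 7 tested vesicular transporters, 2 were higher and 3 lower: Slc32a1, the GABA transporter, had -0.83 ± 0.077, and Slc6a17, a transporter of neutral amino acids on vesicles, -0.61 ± 0.069. Of 14 genes of the vesicle proton pump, 1 was higher (Atp6v1a, 0.51 ± 0.054) and 10 lower (Atp6v1g1, -0.34 ± 0.037). Of 22 genes of the postsynaptic scaffold, 6 were higher (Camk2b, a calcium-dependent kinase subunit, 1.16 ± 0.064) and 10 lower (Dlg1, a scaffold protein, -0.99 ± 0.054). Median log2 fold changes of the lists lay between -0.41 for calcium channels and -0.055 for the release machinery.

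Markers of cell types differed between the tissues beside these genes. The summed level of 13 general neuron markers was 5034 ± 179 CPM in cortex (SD, n = 30) and 4105 ± 329.6 in hippocampus (n = 29), that of 16 GABAergic markers 1876 ± 81.3 and 1214 ± 96.1, and that of 8 glutamatergic markers 7633 ± 314 and 9026 ± 953. Sums of 12 astrocyte markers (5083 ± 267 and 6058 ± 561) and of 12 oligodendrocyte markers (2615 ± 666 and 3120.2 ± 669) were higher in hippocampus. The summed level of the 72 release genes was 23301 ± 809 and 19014 ± 1501 CPM. By role, the sum of SNAREs went from 7026 to 4651 and that of SNARE regulators from 4983 to 5577. These sums weigh the most abundant genes most. Snap25 alone had a median of 3619 CPM in cortex and 2063 in hippocampus, and Cplx2 1651 and 2573. The median log2 fold change of the SNAREs in wild type was -0.07. The part of cell composition in the differences of single members was not tested.

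Between labelled genotypes, no release gene was called in either tissue. In cortex, 0 of 68 members passed an adjusted p under 0.05 in edgeR for Slc25a1 het, Mrpl40 het or double het against wild type, where 0%, 0.0294% and 0.0686% of 20394 tested genes were called, and DESeq2 called 0 as well. At an unadjusted p under 0.05 stood 0, 8 and 11 members, which is 0%, 11.8% and 16.2% of the 68. Over all genes the shares were 3.17%, 6.94% and 10.9%. The 3 comparisons share the wild-type libraries. Median log2 fold changes of the members were 0.0084, 0.035 and 0.032, beside -0.00043, -0.002 and -0.0034 over all genes. The estimate was within 1.2-fold for 68, 66 and 66 of the 68 members, with a median SE of 0.049 in each comparison. Marker sums varied between cortex libraries: that of oligodendrocytes ran from 1716 CPM (Mrpl40 het 1) to 4303 (Slc25a1 het 4). The part of cell composition in these genotype values was not tested.

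**Figure D3:**
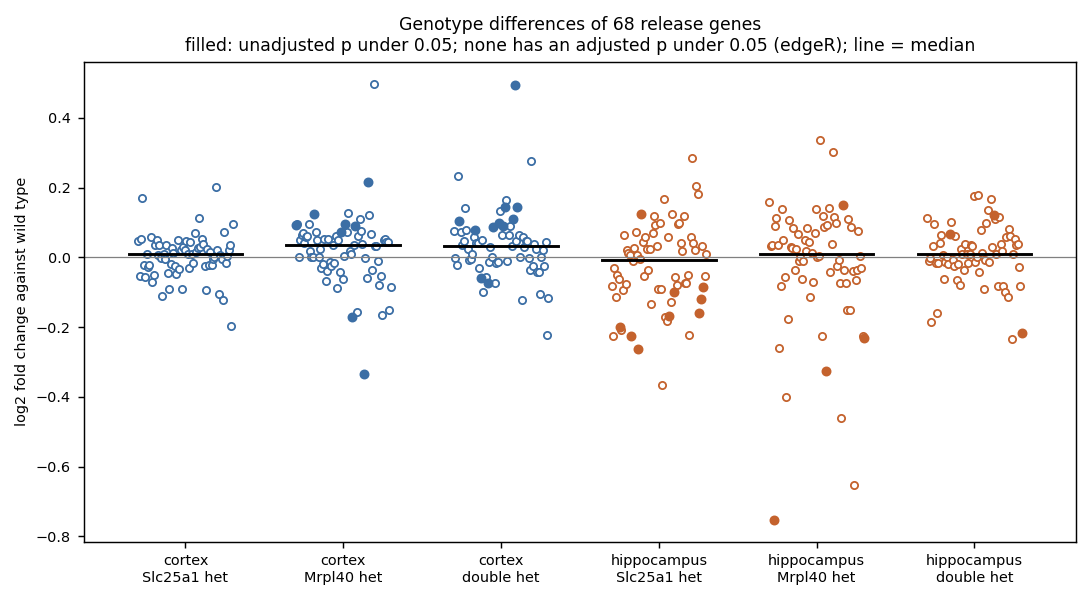
Log2 fold change against wild type (vertical axis) of the 68 tested release genes in the 6 comparisons of a labelled genotype with wild type (horizontal axis), cortex in blue and hippocampus in orange; each point is 1 gene, the line is the median, and filled points have an unadjusted p under 0.05. Medians lie between -0.0078 and 0.035, and 0 members have an adjusted p under 0.05.

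The cortex member with the smallest p was Sv2b in double het. Its level was from 411 to 487 CPM with a median of 454 in wild type, from 411 to 512 CPM with a median of 442 in Slc25a1 het, from 433 to 516 CPM with a median of 475 in Mrpl40 het and from 445 to 540.1 CPM with a median of 506 in double het. The ranges overlapped, and 5 of 7 double het libraries lay above the highest of wild type. The log2 fold change of double het against wild type was 0.14 ± 0.043 (unadjusted p 0.0017, adjusted p 0.17, edgeR), and 0.10 ± 0.05 without the 6 mismatched animals. Against Slc25a1 het it was 0.17 ± 0.046 (adjusted p 0.13, edgeR). Next in double het were Stxbp5 (0.10 ± 0.033), Syt1 (0.11 ± 0.04), Syt12 (0.14 ± 0.06) and Sv2a (0.09 ± 0.038).

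In cortex labelled Mrpl40 het the smallest p was that of Sv2a, which ranged from 535 to 617 CPM with a median of 571 against from 505 to 561 CPM with a median of 550.2 in wild type, with a log2 fold change of 0.095 ± 0.038 (adjusted p 0.63, edgeR). The next were Syt1 (0.091 ± 0.04), Rims4 (0.13 ± 0.055), Syt15 (-0.33 ± 0.15) and Stxbp5 (0.072 ± 0.033). In cortex labelled Slc25a1 het it was Stx17, a syntaxin of autophagosomes, at -0.11 ± 0.055 (unadjusted p 0.051), and then Stx3 (-0.091 ± 0.048), Pclo (-0.057 ± 0.036), Unc13c (-0.12 ± 0.079) and Stxbp4 (-0.092 ± 0.065). Stx17 ranged from 21.4 to 27.0 CPM with a median of 22.8 there and from 22.9 to 29.2 CPM with a median of 25.1 in wild type, so that the groups overlapped over most of their range.

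In hippocampus, 0 of 68 members were called for Slc25a1 het, Mrpl40 het and double het against wild type, where edgeR called 0%, 0.00496% and 0.00992% of 20162 genes and DESeq2 again called 0 members. At an unadjusted p under 0.05 stood 9, 4 and 3 members, which is 13.2%, 5.88% and 4.41% of the 68. Over all genes the shares were 7.77%, 8.19% and 5.28%. Median log2 fold changes of the members were -0.0078, 0.0089 and 0.0086, beside 0.0045, -0.007 and -0.0029 over all genes. Estimates were within 1.2-fold for 66, 61 and 68 members, with a median SE of 0.074, larger than in cortex.

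Of the 68 tested members in hippocampus labelled Slc25a1 het, 9 had an unadjusted p under 0.05. The log2 fold change was negative for 8 and positive for 1 (Stx2), against 4.05% and 3.72% of all genes at that p. Rab3a had the smallest p, so that its ranges restate the values that picked it. It ranged from 348 to 392 CPM with a median of 379.7 in wild type and from 283 to 345 CPM with a median of 331 in Slc25a1 het, and the groups did not overlap, while Mrpl40 het (from 355 to 465 CPM with a median of 375) and double het (from 334 to 420.3 CPM with a median of 368) overlapped with wild type. The log2 fold change was -0.20 ± 0.054 (unadjusted p 7.7e-04, adjusted p 0.45, edgeR), so that it did not pass the test over all genes. It was -0.22 ± 0.048 (adjusted p 0.11, edgeR) without the 4 hippocampus libraries that stood apart and -0.24 ± 0.064 (adjusted p 0.78, edgeR) without the 6 mismatched animals. Library 7 of Slc25a1 het, with the lowest value (283 CPM), was kept in both fits. The share of all genes with no overlap between Slc25a1 het and wild type is not given here.

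Snap25 ranged from 1528 to 2059 CPM with a median of 1874 in hippocampus of Slc25a1 het and from 1912 to 2429.5 CPM with a median of 2193 in wild type, with overlap (log2 fold change -0.22 ± 0.085). Vamp4, Syp and Stx1a followed with -0.086 ± 0.032, -0.17 ± 0.068 and -0.26 ± 0.11. Vamp2 had -0.12 ± 0.055. None passed the adjusted test: the lowest adjusted p among these 5 was 0.56 in edgeR. The sum of 13 general neuron markers was 3812 ± 157 CPM in these libraries and 4110.3 ± 173 in wild type, and that of 12 astrocyte markers 6532 ± 709.7 and 6050.4 ± 382. Library 7 of Slc25a1 het had the lowest value of its group for 21 of 68 members, with 3519 CPM of the neuron markers, the lowest of the hippocampus libraries, and 7469 of the astrocyte markers, the highest. The part of these markers in the values was not tested.

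**Figure D4:**
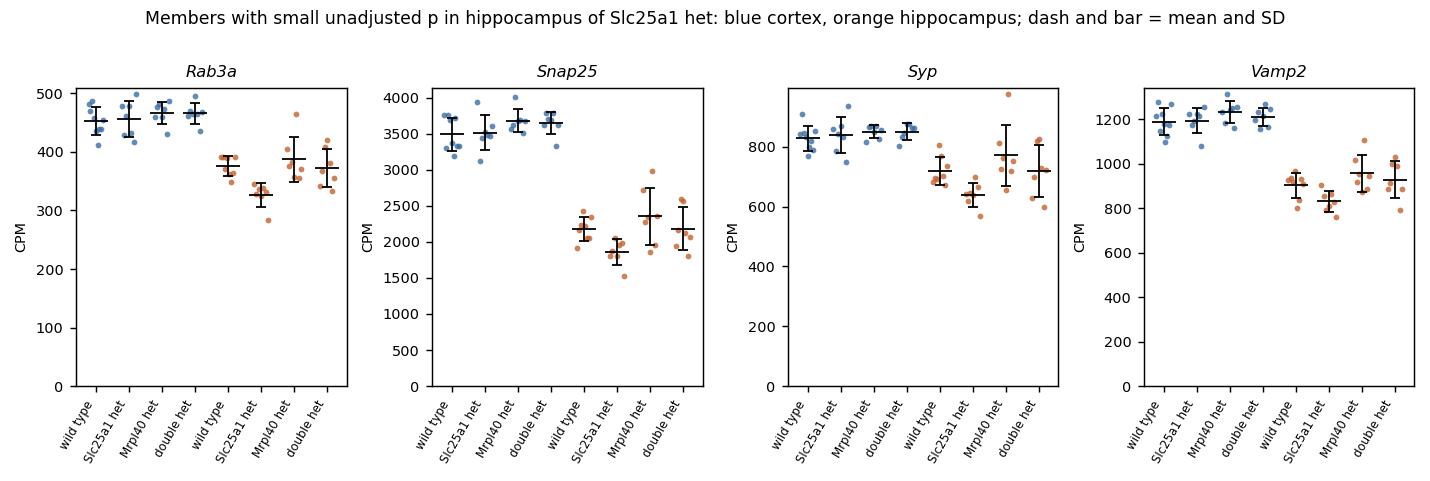
CPM (vertical axis) of Rab3a, Snap25, Syp and Vamp2 in every library by labelled genotype, with cortex in blue and hippocampus in orange; points are libraries, and the dash and bar are the mean and SD. In hippocampus the Rab3a values of Slc25a1 het (highest 345 CPM) lie below the lowest of wild type (348), and in cortex the 4 groups overlap. The genes were picked for a small unadjusted p in hippocampus of Slc25a1 het, and none passed the adjusted test.

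Whether a genotype difference was itself different between tissues was tested with the animal as a block. For Slc25a1 het, 0 of 68 members passed in edgeR and in DESeq2 (0% of all genes in edgeR). At an unadjusted p under 0.05 stood 13 (19.1%), against 6% of all genes. Of these 13 of 68 members, 9 were more negative in hippocampus and 4 more positive, against 3.2% and 2.8% of all genes. Among the smallest p values were those of Rab3a at -0.22 ± 0.061 on the log2 scale (unadjusted p 8.0e-04, adjusted p 0.82, edgeR), Vamp4 (-0.13 ± 0.042), Snap25 (-0.25 ± 0.093) and Stx1a (-0.26 ± 0.10). For Mrpl40 het and double het 0 members passed (0% and 0.0234% of all genes in edgeR, and 0 members in DESeq2). Members at an unadjusted p under 0.05 numbered 3 and 2 (4.41% and 2.94%), against 5.83% and 5.03% of all genes. Tissue differences of the genotype effect were not detectable for single release genes in these numbers of animals.

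In hippocampus labelled Mrpl40 het the smallest p was that of Syn3, the synapsin with the lowest level per length, which ranged from 4.81 to 7.81 CPM with a median of 5.95 against from 6.87 to 8.86 CPM with a median of 8.24 in wild type. The groups overlapped, and the log2 fold change was -0.33 ± 0.11 (adjusted p 0.59, edgeR). Vamp8 (-0.23 ± 0.10), Cplx3 (-0.75 ± 0.32), Syt3 (0.15 ± 0.071) and Sv2c (-0.23 ± 0.11) followed. The value of Cplx3 was -0.20 ± 0.22 without the 4 hippocampus libraries, of which wild type 8 had 15.0 CPM against at most 4.67 in the other wild-type libraries. In hippocampus labelled double het the 5 smallest p values were those of Vamp8 (-0.22 ± 0.10), Stx16 (0.067 ± 0.031), Syt14 (0.12 ± 0.058), Stxbp5l (0.18 ± 0.087) and Stx4a (-0.08 ± 0.046). Vamp8 ranged from 4.79 to 7.13 CPM with a median of 6.6 there and from 6.07 to 8.5 CPM with a median of 7.19 in wild type.

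Double het was also compared with each single het, which differ in 1 labelled allele. In edgeR and in DESeq2, 0 members were called against Slc25a1 het or Mrpl40 het in cortex (edgeR called 0.0588% and 0.0049% of all genes) or in hippocampus (0% and 0%). At an unadjusted p under 0.05 stood 6 and 3 members in cortex (8.82% and 4.41%), against 9.92% and 6.94% of all genes. In hippocampus it was 13 and 0 members (19.1% and 0%), against 9.04% and 4.68% of all genes. In cortex against Slc25a1 het, Pclo had 0.13 ± 0.038 after Sv2b, and against Mrpl40 het, Syn3 had 0.26 ± 0.086. In hippocampus against Slc25a1 het the smallest p values were those of Stx2 (-0.19 ± 0.054, adjusted p 0.31, edgeR), Rab3a (0.18 ± 0.055), Stxbp5l (0.27 ± 0.09), Syt1 (0.23 ± 0.08) and Vamp2 (0.15 ± 0.057). This comparison and that of Slc25a1 het with wild type share the Slc25a1 het libraries.

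The interaction, double het minus both single differences on the log2 scale, had 0 called members in cortex and in hippocampus in edgeR (0% and 0% of all genes) and 0 in DESeq2, with 1 and 2 members at an unadjusted p under 0.05, against 5.35% and 3.39% of all genes. In cortex this was Rims4 (-0.17 ± 0.081), and in hippocampus Stx2 (-0.18 ± 0.075) and Vamp1 (0.25 ± 0.11). The median SE of the members was 0.071 in cortex and 0.11 in hippocampus, larger than for the single comparisons. The other genes of the pathway had 0 called genes in each of the 6 comparisons with wild type in edgeR. Counts at an unadjusted p under 0.05 varied widely between comparisons, given here for Slc25a1 het, Mrpl40 het and double het in that order. Of 25 genes of vesicle recycling, 0, 0 and 10 stood there in cortex and 4, 4 and 3 in hippocampus. Of 14 genes of the proton pump, 0, 0 and 6 did in cortex and 7, 0 and 0 in hippocampus. Over all genes the shares were 3.17%, 6.94% and 10.9% in cortex and 7.77%, 8.19% and 5.28% in hippocampus. These lists were picked after their counts were seen.

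Without the 6 mismatched animals, 0 members were called in each comparison with wild type in edgeR. The 68 tested members then included 3, 3 and 4 at an unadjusted p under 0.05 in cortex and 8, 4 and 1 in hippocampus. These counts are for Slc25a1 het, Mrpl40 het and double het, in that order. Over all genes in these fits the shares were 4.31%, 6.04% and 6.86% in cortex and 6.3%, 7.22% and 3.78% in hippocampus. Without the 4 hippocampus libraries that stood apart, 0 of 68 members were called. At an unadjusted p under 0.05 stood 14, 4 and 9 of the 68, against 10.7%, 5.46% and 8.58% of all genes. The median log2 fold change of the members in hippocampus of Slc25a1 het was -0.0078 with all libraries, -0.017 without these 4 and -0.056 without the 6 animals.

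The spread between animals of 1 group differed among members. In cortex labelled wild type the coefficient of variation was 2.85% for Stx1a, 6.52% for Snap25, 9.26% for Cplx1 and 15.7% for Syt2. In hippocampus labelled wild type it was 14.5% for Stx1a, 7.7% for Snap25, 48.2% for Rims3 and 60.9% for Syt2, the last pair with library 8 as their highest value. Hippocampus library Mrpl40 het 5 had the highest value of its group for 24 of 68 members and wild type 8 for 21, while double het 6 had the lowest for 23. Libraries outside the 4 that stood apart in their markers were as extreme: cortex double het 3 had the lowest value of its group for 23 members, hippocampus Mrpl40 het 4 for 21, and cortex Mrpl40 het 3 the highest for 20.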

How the data were processed

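The members, gene lists and comparisons were chosen with earlier results of these data known. Poly(A) RNA of 59 libraries was sequenced from directional paired-end libraries, per the labels' protocols, and the authors deposited raw read counts per gene with Ensembl identifiers and symbols. Per the submitters' processing notes, the tools were FastQC, HISAT2, featureCounts and DESeq2 and the builds mm39 and GRCm39, with no versions. Reads shared by close paralogs may be split or lost in counting, and all 37 mitochondrial gene rows are at 0 in every library. Library totals lay between 21443017 and 32120906 counts.

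Counts were scaled by edgeR's TMM factors (edgeR 4.0.16, limma 3.58.1, R 4.3.3) after filterByExpr. The 4 genotypes of a tissue were fitted together by quasi-likelihood with robust dispersion. Tissues were compared in the 29 animals with both, with the animal as a block, since the labels give 1 animal identifier for both tissues. Deviations from the group mean correlated between the tissues of 1 animal with a median r of 0.109 over 29 animals, against -0.0099 between different animals. Adjusted p values are Benjamini-Hochberg over all genes tested, called under 0.05. Levels are TMM-scaled CPM, per length divided by the union of exons in GENCODE vM21 (GRCm38, not the build of the counts). Promoters come from RefSeq (GRCm38.p6). The scripts were run on simulated counts with planted changes. Those counts held no effect of animal and few changed genes, so they do not check the tissue comparison as fitted here.

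Genes named were the targeted genes, in each comparison the members past the test or, where fewer than 5 passed, the 5 with the smallest p, in each role the gene with the highest level per length, in each list of other genes the 2 with the smallest p, and paralogs with opposite directions. Between tissues, members outside that rule are named by role. The counts include 2 members that are not reported by name here. Alternatives were DESeq2 1.42.0 (size factors, and its Wald test), no filter, only the genotypes compared, with or without the block, and, added after seeing the data, leaving out 6 animals or 4 hippocampus libraries. Tables were handled with pandas 2.3.3 and figures drawn with matplotlib 3.10.9.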

Additional observations from a re-analysis of the deposited data

Results flagged for a closer look

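For 18 release genes, the highest and lowest library of each of 8 groups was compared with its nearest neighbour. In 16 of 144 groups that gap was large for the group's whole range (Dixon's criterion at 95%). Chance gives about 1 in 20 for a single group. The 18 genes were measured in the same libraries, so the 144 groups are not independent. The 16 can therefore not be judged against that rate. Genotypes are as labelled. Rims3 was 117 CPM in hippocampus library 8 of wild type, the highest, beside 61.3 in the nearest of its group and 70.6 CPM in hippocampus library 6 of Mrpl40 het, the highest, beside 41.7 in the nearest of its group. Cplx1 was 704 CPM in hippocampus library 5 of Mrpl40 het, the highest, beside 513 in the nearest of its group. Cplx2 was 1827 CPM in hippocampus library 8 of wild type, the lowest, beside 2507 in the nearest of its group. Syn2 was 552 CPM in cortex library 2 of wild type, the highest, beside 473 in the nearest of its group. Snap25 was 4013 CPM in cortex library 3 of Mrpl40 het, the highest, beside 3692 in the nearest of its group and 3331 CPM in cortex library 6 of double het, the lowest, beside 3613 in the nearest of its group. Sv2b was 595 CPM in hippocampus library 5 of Mrpl40 het, the highest, beside 358 in the nearest of its group. Rab3a was 283 CPM in hippocampus library 7 of Slc25a1 het, the lowest, beside 325 in the nearest of its group. Sv2a was 362 CPM in hippocampus library 7 of Slc25a1 het, the lowest, beside 416 in the nearest of its group. Syt2 was 66.5 CPM in hippocampus library 8 of wild type, the highest, beside 29.8 in the nearest of its group. Cplx3 was 19.4 CPM in cortex library 4 of Slc25a1 het, the highest, beside 12.1 in the nearest of its group and 19.1 CPM in cortex library 7 of Mrpl40 het, the highest, beside 11.3 in the nearest of its group. It was also 15.0 CPM in hippocampus library 8 of wild type, the highest, beside 4.67 and 5.63 CPM in hippocampus library 6 of Mrpl40 het, the highest, beside 3.15. Syt1 was 2197 CPM in cortex library 1 of Slc25a1 het, the highest, beside 1934 in the nearest of its group. Of the 16 values, 6 lie in hippocampus libraries wild type 8 and Mrpl40 het 5, which stood apart in their markers. No explanation of these values was tested.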

How the results depend on the processing

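Counts of called members stayed within 1.5 times the reported count under each alternative run (90 planned and 32 added after seeing the data). The genes followed individually in these runs kept their direction and side of the threshold, except 5 genes between tissues in wild type. Not every member was followed in every genotype, and the counts that follow show that members changed side in the other genotypes as well. Members called between tissues (wild type first, then Slc25a1 het, then Mrpl40 het, double het last) numbered 54, 54, 55 and 56 as reported, 53, 52, 54 and 52 with no filter on low counts, 54, 55, 55 and 56 by DESeq2's Wald test and 54, 54, 56 and 56 with its size factors in edgeR. They numbered 53, 54, 55 and 54 with only the genotype compared in the fit and 53, 54, 56 and 55 with no replicate block. Without the 6 animals whose Slc25a1 did not match they were 53, 53, 56 and 53, and without the 4 hippocampus libraries 55, 56, 56 and 55. Between tissues in wild type, the adjusted p of Stx5a (0.027 as reported) was 0.15 with no filter, 0.054 with only wild type in the fit and 0.11 without the 6 animals (edgeR). That of Unc13c (0.02 as reported) was 0.24 with no replicate block, at a log2 fold change of -0.40, 0.094 with only wild type and 0.083 without the 6 animals. That of Unc13d (0.06 as reported) was 0.021 with only wild type and 0.039 without the 6 animals, and that of Stx17 (0.11 as reported) was 0.017 without the 4 libraries. Stx3, with a log2 fold change of -0.0057 as reported, had 0.00034 without the 4 libraries and 0.0036 without the 6 animals. The cause was not tested. With the replicate number as a block, 0 members were called in the comparisons of genotypes in edgeR. The labels do not say that a number marks a shared litter or day, so the numbers were not taken as a pairing. Correlations of same-numbered libraries of different genotypes ran from -0.41 to 0.54 in cortex and -0.48 to 0.52 in hippocampus. Their median was 0.126 in cortex, against -0.0275 between different numbers, and 0.0431 against 0.0107 in hippocampus, and 7 of 30 and 4 of 29 libraries correlated best with their own number. The 4 members under the count filter gave no test.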
